A study of Rattus norvegicus with 6 samples.

Results

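Cadherins are the calcium-dependent adhesion receptors that join like cells to each other, and protocadherins are their largest group of relatives, most used in the nervous system. In the rat C6 glioma libraries, 65 genes whose symbol begins with Cdh or Pcdh had at least 1 count, out of 75 rows with such a symbol and 17832 genes with any count. They were chosen by name and by having any count, with earlier results of these data known. Of these genes, 3 encode classical type I cadherins, 7 type II cadherins, 8 atypical cadherins or cadherin-related proteins, 10 non-clustered protocadherins and 37 clustered protocadherins.

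C6 is an established rat glioma cell line. The cells were given FSK (forskolin, which activates adenylyl cyclase and so raises cAMP) or the vehicle DMSO for 24 h, with 3 libraries of total RNA per group. The FSK concentration is not in the labels, which number the libraries without saying that they were separate cultures. The p-values therefore measure the spread between these libraries, which may be technical. In bulk RNA, fewer cells of a type and less RNA per cell cannot be told apart.

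Classical cadherins hold cells together through their outer domains and bind catenins inside the cell, which link them to actin. In glial cells N-cadherin (Cdh2) is the usual classical cadherin, and E-cadherin (Cdh1) marks epithelia. T-cadherin (Cdh13) lacks the inner part and is anchored in the membrane by a lipid. Clustered protocadherins are encoded in tandem arrays called alpha, beta and gamma, in which each variable first exon has its own promoter, and give nerve cells a surface identity.

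The 6 libraries held 72.7 to 79 M counts in FSK and 72.1 to 80 M in DMSO, of which the Cdh and Pcdh rows took 0.154 to 0.166% in FSK and 0.135 to 0.144% in DMSO. All 5 glioma or astrocyte markers looked up (Gfap, S100b, Vim, Nes, Slc1a3) were detected, with summed FPKM of 1776 to 1824 in FSK and 1312 to 1337 in DMSO, most of it from Vim. Gfap, S100b and Vim rose (log2 fold change 3.46, 1.84 and 0.33) and Nes and Slc1a3 fell (-0.90 and -1.38; adjusted p at most 0.00538, edgeR). FPKM is the authors' count scaled to transcript length and library size. Of the 3 endothelial markers matched, Cldn5 was at 0 throughout, and the list summed to 0.110 to 0.210 FPKM in FSK and 0.330 to 0.372 in DMSO. The 4 microglial markers summed to 0.0557 to 0.135 FPKM in FSK and 0 to 0.164 in DMSO. The 4 neuronal markers summed to 12.6 to 15.4 FPKM in FSK and 5.80 to 6.84 in DMSO, nearly all from Tubb3, with Rbfox3 at 0. The fibroblast or meningeal list of 4 summed to 32.9 to 36.2 FPKM in FSK and 43.4 to 53.7 in DMSO, from Pdgfra, which fell, and Pdgfrb, which rose (log2 fold change -0.53 and 0.40, adjusted p = 0.000848 and 0.0248, edgeR). Of the 4 epithelial markers, Cldn4 and Krt18 were at 0, and the list summed to 4.41 to 5.42 FPKM in FSK and 4.37 to 4.43 in DMSO, with Epcam above 1. The part of these markers in the results below was not tested.

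Promoter sequences are shown for the called genes off chromosome 18 that had one, because Pcdh20 and Cdh19 had the largest falls of the family, Pcdh18 also fell and Pcdh7 rose. Each is the run of 250 bases before the gene's start in RefSeq, build GRCr8, written 5′ to 3′ on the gene's strand, with every CG dinucleotide in capitals.
Pcdh20 chr15:70840299-70840548 (- strand): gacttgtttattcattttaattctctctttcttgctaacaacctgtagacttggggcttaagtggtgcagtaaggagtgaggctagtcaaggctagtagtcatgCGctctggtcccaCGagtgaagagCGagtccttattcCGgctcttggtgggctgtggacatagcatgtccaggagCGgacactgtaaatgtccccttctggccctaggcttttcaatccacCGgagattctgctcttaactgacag
Cdh19 chr13:28533754-28534003 (- strand): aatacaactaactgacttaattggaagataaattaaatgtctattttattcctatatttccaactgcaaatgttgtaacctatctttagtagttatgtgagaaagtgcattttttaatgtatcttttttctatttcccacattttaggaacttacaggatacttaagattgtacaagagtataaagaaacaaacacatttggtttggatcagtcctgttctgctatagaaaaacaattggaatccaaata
Pcdh18 chr2:135996827-135997076 (- strand): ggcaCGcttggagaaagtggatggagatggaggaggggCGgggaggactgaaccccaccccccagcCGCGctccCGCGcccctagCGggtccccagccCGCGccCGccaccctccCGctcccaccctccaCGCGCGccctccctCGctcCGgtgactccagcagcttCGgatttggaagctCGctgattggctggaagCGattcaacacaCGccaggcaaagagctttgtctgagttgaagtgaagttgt
Pcdh7 chr14:57113523-57113772 (- strand): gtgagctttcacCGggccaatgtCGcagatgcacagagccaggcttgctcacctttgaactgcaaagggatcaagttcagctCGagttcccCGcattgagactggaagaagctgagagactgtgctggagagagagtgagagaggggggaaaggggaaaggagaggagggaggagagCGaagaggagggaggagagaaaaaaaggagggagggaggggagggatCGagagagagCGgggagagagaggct

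These 4 stretches differ in base composition. The Cdh19 stretch has 0 CG dinucleotides and 28.4% G or C, the Pcdh20 stretch 6 and 49.2%, the Pcdh7 stretch 7 and 57.2%, and the Pcdh18 stretch 20 and 66%. Over all 33469 RefSeq promoters the median was 5 CG and 7.83% had none. Promoters of 49 of the 64 distinct symbols were found, as 50 windows that also take in the 50 bases after the start. The CRE, the DNA element that CREB binds (TGACGTCA, both strands), was in 0 of these 50 windows and in 1.83% of all windows of that length. Its shorter core (TGACG, part of the CRE letters, both strands) was in 16% of the 50 and 21.2% of all, and the E-box CAGGTG (both strands) in 12% and 18.8%. None of the 8 windows of called genes held any of the 3 motifs. The other called genes, Cdh13, Cdh2, Cdh3, Pcdha6 and Pcdhgb6, had no window and were not searched. A match or its absence describes these letters in this window.

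With FSK the RNA of T-cadherin was higher and that of several less abundant cadherins and protocadherins was lower. Of the 65 genes, 47 had enough counts to test, 4 rose, 9 fell and 34 did not pass (edgeR quasi-likelihood test, Benjamini-Hochberg adjusted p below 0.05 over 14166 genes). The 13 called genes are 27.7% of those tested, against 39.4% of all tested genes (19.6% higher and 19.8% lower). Calls of at least 2-fold were made for 6 of the 47, against 7.71% of all tested genes. For 19 of the 47 genes the 3 FSK libraries lay wholly above or wholly below the DMSO libraries, against 53% of all tested genes. The median log2 fold change, FSK over DMSO, was -0.01 for the family and -0.01 for all tested genes.

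Most calls were among the better expressed genes. Of the 19 tested genes with a mean of at least 1 FPKM in a group, 12 were called, and of the 28 below that, 1 was (Pcdhb10). When all genes were refitted above that level, 12 of 19 were called, against 45.6% of all. Over all genes too, that share was above the 39.4% called with the default filter. The share of all genes below 1 FPKM that were called was not computed. The split of 4 rises and 9 falls became 5 and 6 with the trend of fold change with transcript length removed (20.5% and 17.8% of all genes, 38.4% in all). With limma it was 2 and 10 on log2(FPKM + 1) (16.9% and 23.9%, 40.8% in all) and 2 and 9 on log2(FPKM + 0.1) (16.8% and 23.8%, 40.5% in all).

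The count of called genes is read against these other shares of all genes. DESeq2 size factors gave 13 called genes (39.4% of all genes), no filter 12 (29.2%), DESeq2 15 (34.3%), a replicate block 10 (30.5%), and the block with the length trend removed 8 (28.9%). Without FSK replicates 1, 2 and 3 the counts were 10, 11 and 11 (34.9%, 30.1% and 30.2%), and without DMSO replicates 1, 2 and 3 they were 11, 12 and 12 (37.3%, 29.4% and 32.8%).

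**Figure D1:**
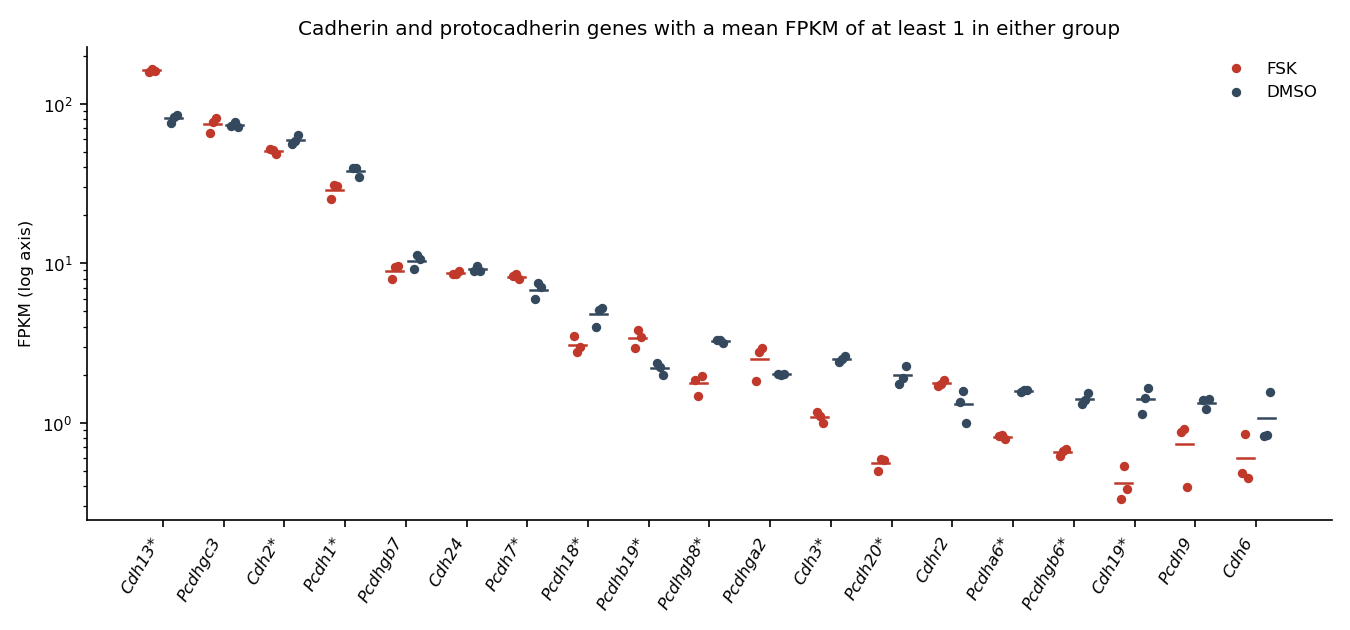
FPKM of each library (points, log axis) and group means (lines) for the 19 tested Cdh and Pcdh genes with a mean of at least 1 FPKM in a group, FSK left of DMSO, with asterisks at adjusted p below 0.05. Cdh13 stands at 159 to 167 FPKM in FSK and 76.1 to 85 in DMSO, while Cdh3, Pcdh20, Pcdha6, Pcdhgb6, Pcdhgb8 and Cdh19 are lower in every FSK library.

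Among the classical type I cadherins, both tested genes fell, Cdh3 by more than 2-fold and Cdh2 slightly (39.4% of all tested genes were called). Cdh2, which encodes N-cadherin and lies at chr18:8146971-8360684 on Rnor_6.0, had 52.4, 51.0 and 48.3 FPKM in FSK and 55.8, 58.7 and 63.4 FPKM in DMSO. The groups did not overlap, but the log2 fold change was only -0.16 ± 0.05 (adjusted p = 0.0439, edgeR). The call for Cdh2 was lost without FSK replicate 1, 2 or 3 (adjusted p = 0.0566, 0.113 and 0.146) and without DMSO replicate 2 or 3 (0.111 and 0.0912). It was also lost with the length trend removed (log2 fold change -0.06, adjusted p = 0.372).

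Cdh3, which encodes P-cadherin, an adhesion receptor best known from epithelia, lies at chr19:38669230-38719677. It had 1.16, 1.10 and 0.999 FPKM in FSK and 2.39, 2.49 and 2.61 FPKM in DMSO. The means were 1.09 ± 0.0811 FPKM in FSK and 2.50 ± 0.113 FPKM in DMSO (SD, n = 3 each). Every FSK library was below every DMSO library, with a log2 fold change of -1.13 ± 0.12 (adjusted p = 0.000256, edgeR), and the gene passed in all 15 other settings. Its neighbour Cdh1, the E-cadherin gene at chr19:38768467-38838395, had 0 counts in all 6 libraries, which allows up to 0.0416 CPM in the smallest library by counting error alone (3 counts), if 1 count is 1 read. Low counts were often multiples of 4 (38.1% of values from 1 to 20), so the true limit may be higher. Cdh4, for R-cadherin, was also at 0 throughout, and Cdh15, for M-cadherin, had 8, 0 and 0 counts in FSK and 4, 0 and 0 in DMSO.

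Type II cadherins are a second branch of catenin-binding receptors. Of 4 tested, 1 fell and 3 did not pass (25% called, against 39.4% of all tested genes). The gene that fell was Cdh19 (chr13:32344966-32427177), known from neural crest derivatives. It had 0.333, 0.534 and 0.381 FPKM in FSK and 1.13, 1.43 and 1.65 FPKM in DMSO. All FSK libraries were below all DMSO libraries, with a log2 fold change of -1.68 ± 0.23 (adjusted p = 0.000904, edgeR), a fold of 0.312.

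Cdh24 was the most abundant type II gene, with 8.50, 8.58 and 8.95 FPKM in FSK and 8.96, 9.55 and 8.89 FPKM in DMSO. Its groups overlapped and its log2 fold change was -0.01 ± 0.08 (adjusted p = 0.964, edgeR). Cdh6 had 0.483, 0.853 and 0.452 FPKM in FSK and 0.819, 0.834 and 1.55 FPKM in DMSO, overlapping groups with a log2 fold change of -0.77 ± 0.36 (adjusted p = 0.121, edgeR). Cdh5, the endothelial VE-cadherin gene, and Cdh8, Cdh9, Cdh12, Cdh18 and Cdh20 had 0 counts in every library.

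Cdh13 had the highest mean FPKM of the family in both groups. Of the 7 tested atypical or related genes it alone passed (14.3% called, against 39.4% of all tested genes, edgeR). It lies at chr19:50848736-51972103 and had 159, 167 and 162 FPKM in FSK and 76.1, 83.1 and 85 FPKM in DMSO. Each FSK library was far above each DMSO library, with means of 162 ± 3.83 FPKM in FSK and 81.4 ± 4.72 FPKM in DMSO (SD, n = 3 each). The fold was 2.09, or 1.07 ± 0.05 on the log2 scale (adjusted p = 4.06e-06, edgeR), and the gene passed in all 15 other settings with log2 fold changes of 0.99 to 1.15. The rows that overlap Cdh13 in the table, all small or noncoding RNA genes, had 0 counts. Of the tested genes on either side, Mphosph6 did not pass (-0.05 ± 0.13 on the log2 scale, adjusted p = 0.803, edgeR) and Hsbp1, 13.1 kb beyond the end, rose by 0.31 ± 0.05 (adjusted p = 0.00269, edgeR).

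Cdhr2, which encodes a cadherin-related protein of intestinal and renal brush borders, had 1.69, 1.75 and 1.86 FPKM in FSK and 1.34, 1.58 and 0.991 FPKM in DMSO. The groups did not overlap, and the log2 fold change of 0.50 ± 0.19 missed the threshold (adjusted p = 0.0666, edgeR). Without DMSO replicate 2 it passed, with 0.67 and an adjusted p of 0.0402. Cdhr1, Cdhr5, Cdh16, Cdh17 and Cdh23 stayed below 1 FPKM on average in both groups and did not pass.

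The rise of Cdh13 changed the make-up of the family's RNA. Summed over all Cdh and Pcdh rows, FPKM came to 349.9, 377.3 and 372.3 in FSK and 297.4, 318.8 and 314.0 in DMSO. Cdh13 made up 44.3 ± 1.02% of that sum in FSK and 26.2 ± 0.766% in DMSO (SD, n = 3 each). Without Cdh13 the sum was lower in FSK, at 190.9, 210.8 and 210.6 FPKM, against 221.3, 235.6 and 228.9 FPKM in DMSO. These sums lack the TMM scaling used in the edgeR test, whose factors were 0.9641 to 0.9885 in FSK and 1.009 to 1.042 in DMSO. With it the gap would be smaller. In FSK the lowest Cdh13 library stood above the highest Pcdhgc3 library (159 against 81.2 FPKM), whereas in DMSO the ranges of these genes met (76.1 to 85 and 71.8 to 76.8 FPKM). Pcdhgc3, Cdh2 and Pcdh1 followed in that order in both groups, though the Pcdhgc3 row may also hold reads of other gamma protocadherin transcripts. The 4 genes together held 86.3 ± 0.0872% of the sum in FSK and 81.4 ± 0.494% in DMSO.

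**Figure D2:**
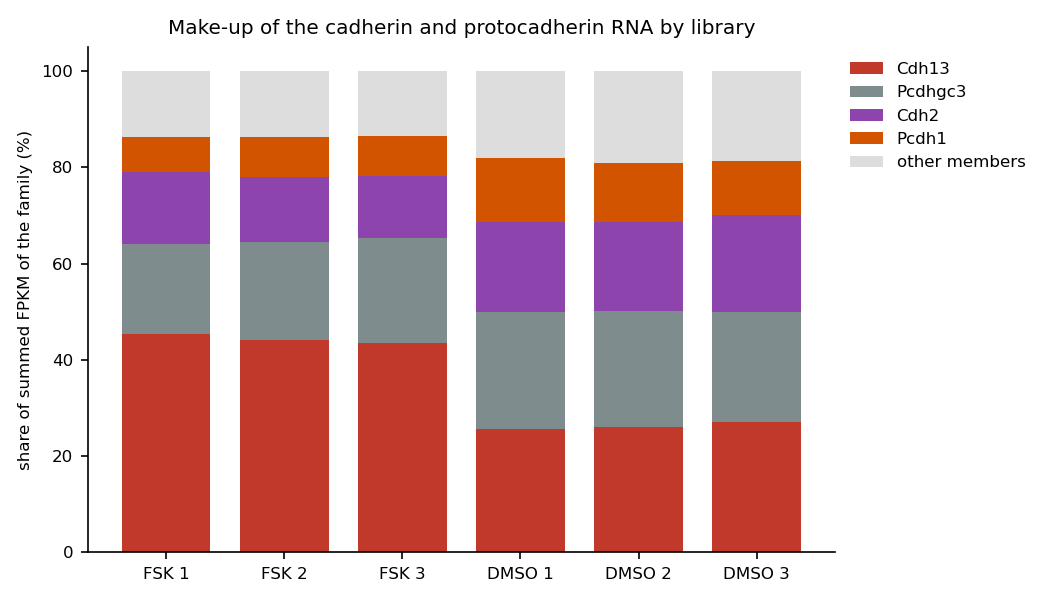
Share of the summed FPKM of all Cdh and Pcdh rows (%, stacked bars) held by Cdh13, Pcdhgc3, Cdh2, Pcdh1 and the other genes in each library, FSK libraries left of DMSO libraries. The Cdh13 share lies between 43.4 and 45.4% in FSK and between 25.6 and 27.1% in DMSO.

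Non-clustered protocadherins are single genes of adhesion and signalling receptors scattered over the genome. Of 7 tested, 3 fell, 1 rose and 3 did not pass, against 39.4% of all tested genes called. For 6 of the 7 the groups did not overlap, against 53% of all. The median log2 fold change was -0.65, against -0.01 over all tested genes. Without FSK replicate 1, 2 were called and the median was -0.42.

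Pcdh20 (chr15:71772777-71779033) had the largest fall of any called gene of the family. It had 0.498, 0.595 and 0.582 FPKM in FSK and 1.75, 1.91 and 2.28 FPKM in DMSO. The means were 0.558 ± 0.0527 FPKM in FSK and 1.98 ± 0.271 FPKM in DMSO (SD, n = 3 each). All FSK libraries were far below all DMSO libraries, with a fold of 0.297 and a log2 fold change of -1.75 ± 0.15 (adjusted p = 7.8e-05, edgeR). Pcdh18 (chr2:138819960-138833933), of the delta-2 group of protocadherins, had 3.5, 2.79 and 2.96 FPKM in FSK and 4, 5.11 and 5.26 FPKM in DMSO. It fell by 0.57 ± 0.13 on the log2 scale (adjusted p = 0.00927, edgeR), and lost the call with the replicate block and the length trend removed together (-0.42, adjusted p = 0.069).

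Pcdh1 (chr18:31328919-31343797), the most abundant non-clustered protocadherin and a delta-1 member, had 25.2, 30.9 and 30.6 FPKM in FSK and 39.3, 39.4 and 34.8 FPKM in DMSO. All FSK values were below all DMSO values, and the log2 fold change was -0.32 ± 0.10 (adjusted p = 0.0324, edgeR). The call was lost without FSK replicate 1 (adjusted p = 0.0601), DMSO replicate 1 (0.0905) or DMSO replicate 2 (0.103), and with the length trend removed (log2 fold change -0.21, adjusted p = 0.175).

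Pcdh7 (chr14:55072200-55081551), another delta-1 protocadherin, went the other way, with 8.25, 8.53 and 7.90 FPKM in FSK and 5.97, 7.47 and 7.07 FPKM in DMSO. It rose by 0.34 ± 0.10 on the log2 scale (adjusted p = 0.0245, edgeR). The call was lost without FSK replicate 1 (0.0537) or FSK replicate 2 (0.0855), and with limma on log2(FPKM + 1) (0.0841) or log2(FPKM + 0.1) (0.0777). Pcdh9, also of the delta-1 group, had 0.876, 0.915 and 0.395 FPKM in FSK and 1.38, 1.22 and 1.40 FPKM in DMSO, with 1 FSK library well below the others. Its log2 fold change of -0.81 ± 0.30 missed the threshold (adjusted p = 0.0636, edgeR), although it passed with DESeq2 (0.0302) and limma on log2(FPKM + 1) (0.0322). Pcdh17 and Pcdh19 averaged under 1 FPKM in both groups and did not pass, and Pcdh15 had 0 counts throughout.

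**Figure D3:**
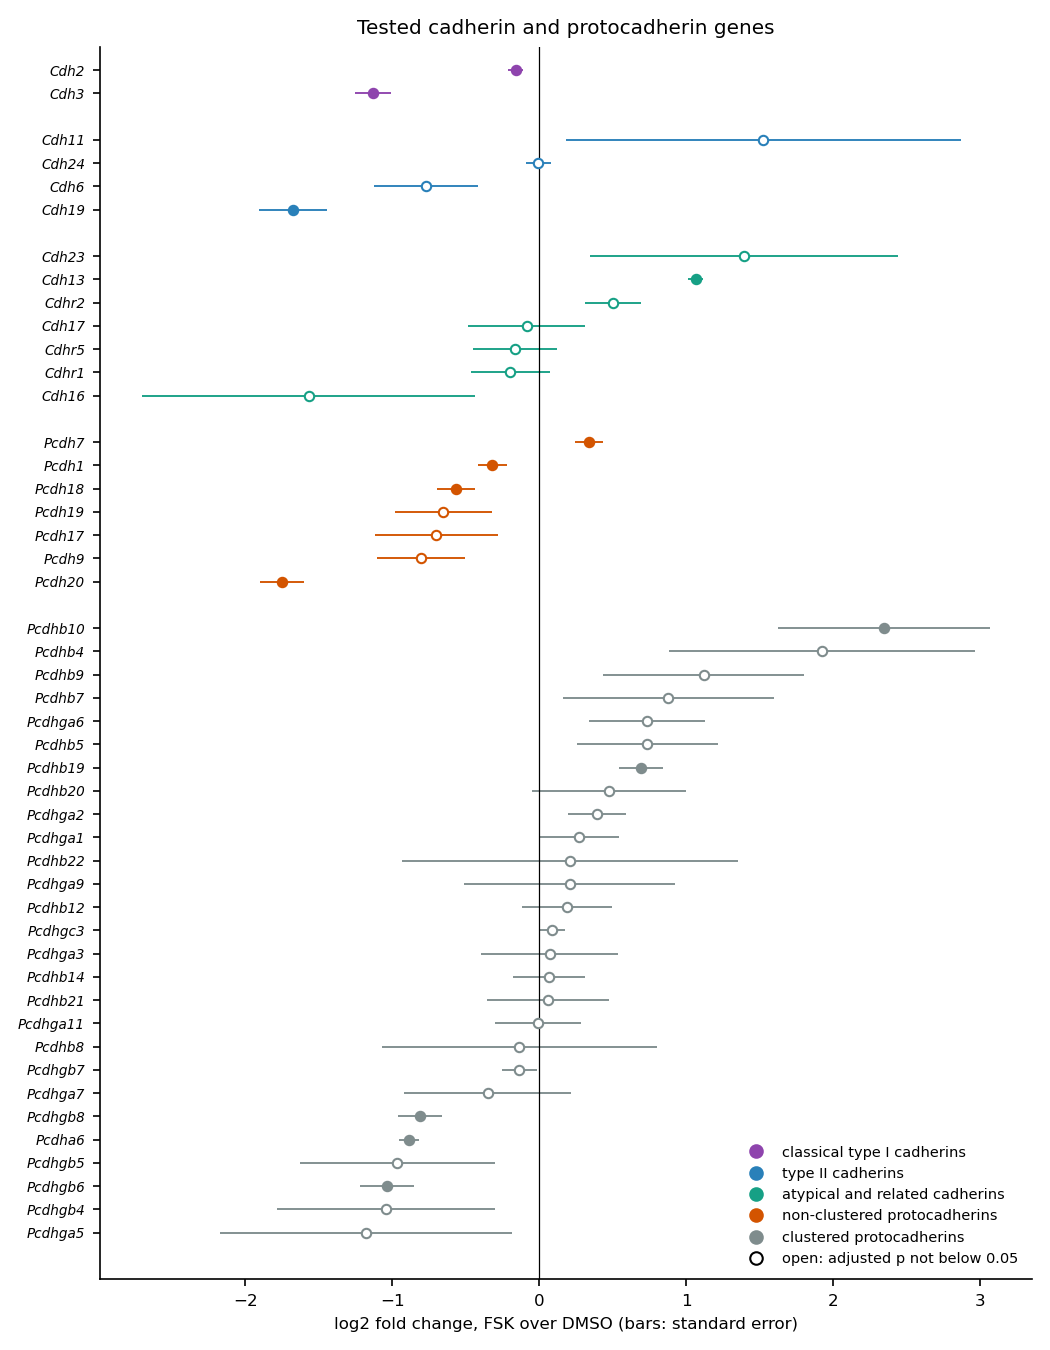
Log2 fold change, FSK over DMSO, with its standard error for the 47 tested genes, grouped by subfamily, with filled points at adjusted p below 0.05 (edgeR). The filled points run from -1.75 for Pcdh20 to 2.35 for Pcdhb10, whose standard error of 0.72 is the widest among them.

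In the clustered arrays, 27 of 37 rows were tested, of which 2 rose, 3 fell and 22 did not pass. The 5 called are 18.5% of those tested, below the 39.4% of all tested genes. Their median log2 fold change was 0.09. All 37 rows lie on chromosome 18. Transcripts of the alpha array share 3′ exons, as do those of the gamma array, while beta genes are single exons, and the variable exons are alike in sequence. How the authors' counting divided shared or similar reads among rows is not given in the sources used here, so the values of single rows are uncertain.

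The alpha array was represented by Pcdha6 (chr18:29987206-30215897), whose row spans far more of the locus than the 2 Pcdha4 rows, with at most 8 counts each. The Pcdha6 row had 0.824, 0.840 and 0.787 FPKM in FSK and 1.55, 1.61 and 1.60 FPKM in DMSO. The groups were well apart, with a log2 fold change of -0.89 ± 0.07 (adjusted p = 3.77e-05, edgeR). The transcript length implied by its counts and FPKM was 27.8 kb, against a median of 2.30 kb over tested genes, so its FPKM is low for its 1692 to 1769 counts in FSK and 3094 to 3566 in DMSO. With the length trend removed the log2 fold change was -0.40 and the call was lost (adjusted p = 0.0572).

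In the beta array, Pcdhb19 (chr18:30574627-30577035) had the most RNA, with 2.94, 3.78 and 3.45 FPKM in FSK and 2.36, 2.24 and 2.00 FPKM in DMSO. It rose by 0.69 ± 0.15 on the log2 scale (adjusted p = 0.00738, edgeR) and passed in all 15 other settings. Pcdhb10 had 22, 27 and 48 counts in FSK and 4, 12 and 4 in DMSO, a log2 fold change of 2.35 ± 0.72 (adjusted p = 0.0327, edgeR). Its call was lost without FSK replicate 1, 2 or 3 (adjusted p = 0.0516, 0.0767 and 0.132), without DMSO replicate 1 or 3 (0.0940 and 0.107), without a filter (0.0540) and with limma on log2(FPKM + 1) or log2(FPKM + 0.1) (0.185 and 0.0788). Of the 12 tested beta rows, 11 had a positive log2 fold change, against 49% of all tested genes, but 10 did not pass. Some had few counts, such as Pcdhb9 with 32, 26 and 38 in FSK and 8, 31 and 8 in DMSO. Rows this low can pass the expression filter through their higher group alone, and similar reads may be shared between rows. The signs are therefore not independent, and no conclusion on the array is drawn from them. Summed over the 17 beta rows, FPKM came to 5.83, 6.69 and 6.22 in FSK and 4.56, 4.74 and 4.13 in DMSO. Leaving out Pcdhb19, the sum was 2.88, 2.91 and 2.77 FPKM in FSK and 2.20, 2.50 and 2.13 FPKM in DMSO, again without overlap.

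In the gamma array, the Pcdhgc3 row (chr18:30913842-30969361) held most of the FPKM and is the last of the array. It spans more of the locus than any other gamma row, with an implied transcript length of 5.42 kb, against 2.48 kb for Pcdhgb7. Every other gamma row ends before the Pcdhgc3 row starts, so reads of shared 3′ exons beyond that point could be counted in no other gamma row. How many such reads it took in was not tested, so its values may not be those of the Pcdhgc3 transcript alone. The Pcdhgc3 row had 65.5, 77.1 and 81.2 FPKM in FSK and 72.4, 76.8 and 71.8 FPKM in DMSO. The groups overlapped, with a log2 fold change of 0.09 ± 0.09 (adjusted p = 0.460, edgeR). Pcdhgb7, the next in level, had 7.92, 9.39 and 9.66 FPKM in FSK and 9.17, 11.3 and 10.6 FPKM in DMSO, overlapping groups with -0.13 ± 0.12 on the log2 scale (adjusted p = 0.398, edgeR).

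The nearest B-type rows on either side of Pcdhgb7, each with an A-type row between, fell. Pcdhgb8 (chr18:30909490-30912592) had 1.85, 1.47 and 1.96 FPKM in FSK and 3.28, 3.28 and 3.18 FPKM in DMSO, a log2 fold change of -0.81 ± 0.15 (adjusted p = 0.00368, edgeR). Pcdhgb6 (chr18:30890869-30893286) had 0.615, 0.664 and 0.680 FPKM in FSK and 1.32, 1.38 and 1.52 FPKM in DMSO, a log2 fold change of -1.03 ± 0.18 (adjusted p = 0.00305, edgeR). Neither gene's groups overlapped, and both passed in all 15 other settings. Pcdhga2 had 1.83, 2.78 and 2.95 FPKM in FSK and 2.02, 1.99 and 2.03 FPKM in DMSO, overlapping groups with 0.39 ± 0.20 on the log2 scale (adjusted p = 0.152, edgeR). Without FSK replicate 1, its lowest FSK library, it passed with 0.58 (adjusted p = 0.0178). Whether the gamma rows differ from each other in their response was not tested.

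**Figure D4:**
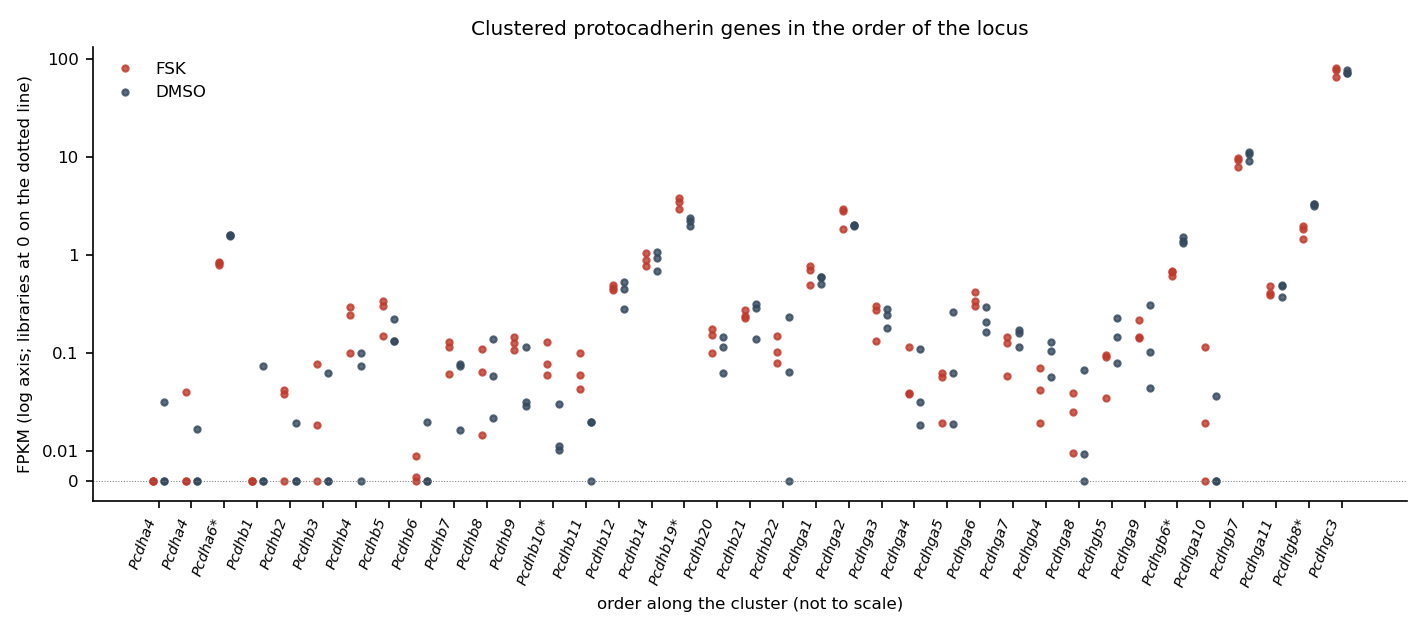
FPKM of each library (points, log axis, libraries at 0 on the dotted line) for the 37 clustered protocadherin rows in their order along the locus, FSK left of DMSO, with asterisks at adjusted p below 0.05. Pcdhgc3 at the right end lies at 65.5 to 81.2 FPKM in FSK and 71.8 to 76.8 in DMSO, and most other rows are below 1 FPKM.

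The nearest tested neighbours of the 13 called genes, 1 on each side, lay 1.25 to 4117 kb away and were in part other Pcdh rows. Of these 26, 5 were called, against 39.4% of all tested genes, with 1 in the direction of its Cdh or Pcdh gene (Hsbp1) and 4 in the opposite direction. The remaining 18 genes with any count had at most 30 counts in a library and were not tested, and 10 rows had no count. The table gave the GO term for calcium ion binding to 50 of the 65 genes and that for homophilic adhesion to 50.

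The genes of the catenin list, which also holds partners of catenins at junctions, did not move together. Of 13 matched genes of the catenin list, 10 were tested, and 2 rose, 4 fell and 4 did not pass (60% called, against 39.4% of all tested genes), with a median log2 fold change of 0.03, against -0.01 for all. Ctnna1, for alpha-catenin, which links cadherins to actin, rose by 0.57 ± 0.05 (adjusted p = 5.97e-05, edgeR), with 184 to 191 FPKM in FSK and 129 to 140 in DMSO. Vcl, for the actin linker vinculin, fell by 0.65 ± 0.05 (adjusted p = 3.4e-05, edgeR), and Afdn, for the junction scaffold afadin, by 0.73 ± 0.09 (adjusted p = 0.000417, edgeR). Ctnnal1, an alpha-catenin relative, fell by 0.66 ± 0.18 (adjusted p = 0.0217, edgeR), with 0.0513, 0.0751 and 0.0884 without FSK replicate 1, FSK replicate 2 and DMSO replicate 2 and 0.0636 with the replicate block. Ctnnb1, for beta-catenin, did not pass (0.01 ± 0.04, adjusted p = 0.847, edgeR). Nor did the catenin genes Jup (0.11 ± 0.17, adjusted p = 0.643, edgeR) and Ctnnd1 (0.04 ± 0.06, adjusted p = 0.614, edgeR).

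Of 8 tested relatives in the wider cadherin superfamily, 2 rose, 4 fell and 2 did not pass (75% called, against 39.4% of all tested genes). The median log2 fold change was -0.27. The giant cadherin genes Fat1, with 10.5 to 12.5 FPKM in FSK and 22.7 to 28.7 in DMSO, and Fat4 fell by 1.13 ± 0.09 and 1.06 ± 0.14 on the log2 scale (adjusted p = 6.55e-05 and 0.000791, edgeR). Celsr2, for a seven-pass cadherin of planar polarity, rose by 1.22 ± 0.10 (adjusted p = 7.19e-05, edgeR). Fat2 had 0 counts in the 3 FSK libraries and 45, 27 and 60 in DMSO, at least 13.9-fold lower with a floor of 3 counts per library (adjusted p = 0.00247, edgeR). That bound takes 1 count as 1 read and is smaller if a read gave several counts. It did not pass with limma on log2(FPKM + 1) or log2(FPKM + 0.1) (adjusted p = 0.369 and 0.149).

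Among 12 tested genes for proteases that cut cadherins, 5 rose, 1 fell and 6 did not pass (50% called, against 39.4% of all tested genes). Their median log2 fold change was 0.11. The sheddase gene Adam10 did not pass (-0.27 ± 0.15, adjusted p = 0.180, edgeR). Of the gamma-secretase genes, Psen2 rose by 0.998 ± 0.084 (adjusted p = 6.84e-05, edgeR) and Psenen by 0.48 ± 0.06 (adjusted p = 0.000628, edgeR). Ncstn (0.14 ± 0.05, adjusted p = 0.057, edgeR) and Aph1a (0.09 ± 0.07, adjusted p = 0.297, edgeR) did not pass. Mmp3, for a secreted protease that can cut E-cadherin, stood at 247 to 261 FPKM in FSK and 6.18 to 7.63 in DMSO (log2 fold change 5.28 ± 0.08, adjusted p = 1.8e-08, edgeR). Mmp9 fell by 0.71 ± 0.20 (adjusted p = 0.0234, edgeR), with 0.0556, 0.0778 and 0.0533 without FSK replicates 1 to 3 and 0.0514 and 0.0766 without DMSO replicates 1 and 3.

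The repressors that bind E-boxes of the Cdh1 promoter were tested for 8 genes, of which 1 rose, 3 fell and 4 did not pass. That is 50% called, against 39.4% of all tested genes, with a median log2 fold change of -0.14. Snai2 fell by 1.25 ± 0.15 (adjusted p = 0.000372, edgeR), with 4.79 to 6.01 FPKM in FSK and 10.9 to 16 in DMSO. Twist1 fell by 0.69 ± 0.07 (adjusted p = 0.000134, edgeR) and Zeb1 by 0.51 ± 0.12 (adjusted p = 0.0118, edgeR). Twist2 rose by 0.71 ± 0.18 (adjusted p = 0.0132, edgeR; 0.0532 without FSK replicate 3). Cdh1 itself was at 0 in both groups.

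CTCF and cohesin fold the clustered arrays and set which promoter is used. Of 14 tested genes for them, their loaders and silencers of the arrays, 1 rose, 7 fell and 6 did not pass. That is 57.1% called, against 39.4% of all tested genes, with a median log2 fold change of -0.48. With the length trend removed, 3 rose and 7 fell with a median of -0.27, against 20.5% and 17.8% of all genes. With the replicate block as well, 2 rose and 2 fell, against 28.9% of all genes called. The cohesin genes Smc3 and Stag1 fell by 0.75 ± 0.19 and 0.76 ± 0.20 on the log2 scale (adjusted p = 0.0145 and 0.0165, edgeR), Wapl, for the cohesin release factor, by 0.69 ± 0.16 (adjusted p = 0.0113, edgeR) and the silencer gene Smchd1 by 0.72 ± 0.18 (adjusted p = 0.0134, edgeR). Without FSK replicate 2 or 3 the adjusted p was 0.0531 and 0.0552 for Smc3, 0.0610 and 0.0648 for Stag1, and 0.0551 and 0.0542 for Smchd1. The list then had 5 and 4 called genes, against 30.1% and 30.2% of all genes. Ctcf did not pass (-0.04 ± 0.07, adjusted p = 0.648, edgeR).

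Of 13 tested genes whose proteins bind protocadherin tails, 2 rose, 5 fell and 6 did not pass (53.8% called, against 39.4% of all tested genes). Their median log2 fold change was -0.22. With the length trend removed, 4 rose and 4 fell with a median of -0.13, against 20.5% and 17.8% of all genes. The kinase gene Ptk2b fell by 1.77 ± 0.30 on the log2 scale (adjusted p = 0.00226, edgeR) and Abi2, for a subunit of the actin-regulating WAVE complex, by 0.90 ± 0.10 (adjusted p = 0.000244, edgeR). Brk1, for another WAVE subunit, rose by 0.45 ± 0.05 (adjusted p = 0.000235, edgeR). Nckap1, also of that complex, fell by 0.38 ± 0.11 (adjusted p = 0.0274, edgeR), and its call was lost without FSK replicate 2 or 3 (0.0867 and 0.102) or DMSO replicate 2 or 3 (0.0558 and 0.0705).

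**Figure D5:**
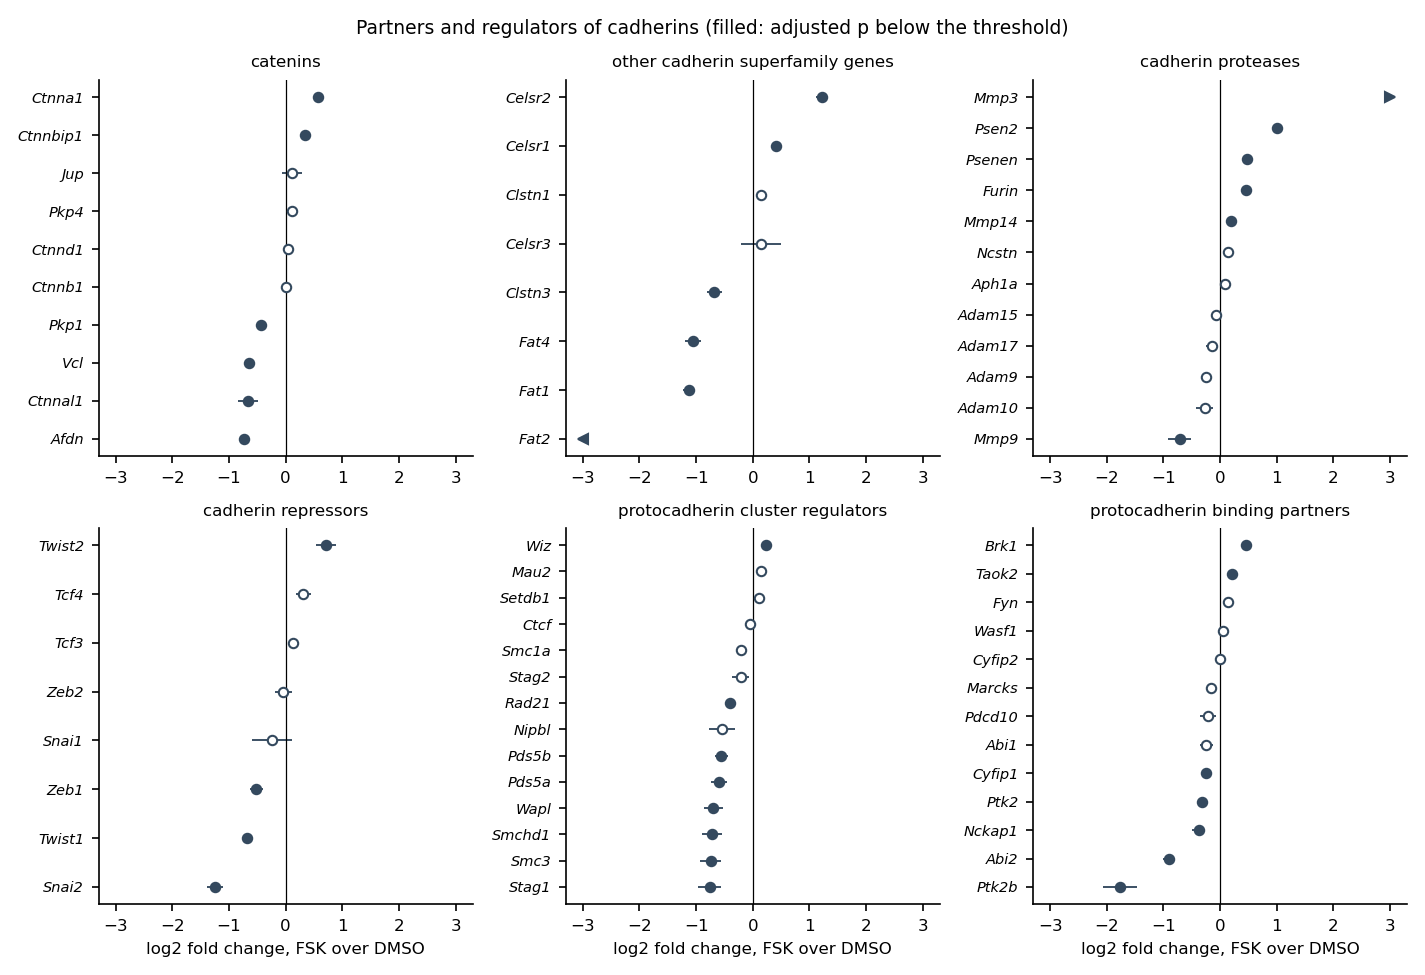
Log2 fold change, FSK over DMSO, with its standard error for the tested genes of 6 lists of partners and regulators, with filled points at adjusted p below 0.05 (edgeR) and arrowheads for genes beyond the axis. The genes of the catenin list run from -0.73 for Afdn to 0.57 for Ctnna1, and Mmp3 at 5.28 and Fat2, at 0 counts in FSK, lie off the scale.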

How the data were processed

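RNA of 3 FSK and 3 DMSO libraries was analysed, with all 6 in 1 fit. Per the submitters' processing notes, cutadapt, HISAT2, StringTie, edgeR, DESeq2 and the build Rnor_6.0 were used, without versions or settings. Per the file headers, the deposited table holds counts and FPKM values per gene for 32623 rows. A count of 0 is listed as 0.0001 FPKM. Low counts were more often 4 (2142 values) than 3 (800) or 5 (514), so 1 count may not be 1 read. No pair of replicates of a group held identical values. Between them chi-square was 30.2 to 55.8 times its degrees of freedom, taking 1 count as 1 read. These values cannot show whether the libraries came from separate cultures.

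The quasi-likelihood F test of edgeR 4.0.16 (R 4.3.3) was run on the counts with TMM scaling and the default expression filter, and was tested on simulated data. Adjusted p-values are Benjamini-Hochberg values over 14166 genes, and fold changes are log2 ± standard error from the F statistic. Alternatives were DESeq2 1.42.0, its size factors, limma 3.58.1 on log2(FPKM + 1) and log2(FPKM + 0.1), no filter, a minimum of 1 FPKM, a replicate block, a length trend removed by lowess, and each library left out. Named genes are those called, those with a mean of at least 1 FPKM in a group, the highest of each subfamily, any at 0 counts throughout 1 group and at least 10 counts in each library of the other (0 genes qualified), and up to 4 called genes per list. Ctnnb1, Jup, Ctnnd1, Adam10, Ncstn, Aph1a, Ctcf and the genes beside called ones were chosen after their values were seen. Members and lists were chosen with earlier results of these data known. Of the lists, Ctnna3, Pkp2, Dchs2, Aph1b and Pecam1 were not matched and are not analysed here. Protein sequences were not used here, and some items are not reported here.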

Additional observations from a re-analysis of the deposited data

How the results depend on the processing

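The count of 13 called Cdh and Pcdh genes was 10 to 12 when 1 library was left out and 10 to 15 under the other alternatives, except 8 with the replicate block and the length trend removed together. Without the trend the called genes were 11, of which 10 were among the 13. Same-numbered libraries did not deviate together (correlations -0.0407, 0.0177 and -0.0354). No library correlated best with its own number except FSK replicate 2 with DMSO replicate 2. With so few libraries, these values cannot show whether same-numbered libraries were handled together. The replicate block gave 10 of the 13, with 4325 of all genes called in place of 5576. Classical type I genes called were 1 with the replicate block, 1 with the length trend removed and 1 with both, and 1 to 2 with a library left out. Non-clustered and clustered protocadherins called with both were 2 and 3, and cluster regulators 4. Leaving out a library gave 2 to 4 non-clustered protocadherins, 1 to 2 type II genes, 1 to 2 atypical genes and 4 to 10 cluster regulators. Atypical genes called were 2 with the length trend removed and 2 with DESeq2, the second being Cdhr2. Cdh24, not called in any setting, changed sign to 0.012 with the length trend removed and 0.013 with the block as well, and ran from -0.045 to 0.028 with a library left out. The block ended the calls of Cdh2 (adjusted p = 0.121), Pcdh1 (0.0682) and Pcdhb10 (0.0911), and of Ctnnal1 (0.0636), Mmp9 (0.0558), Smc3 (0.0512) and Nckap1 (0.0764). With the length trend removed too, Pcdh18 (0.069), Pcdha6 (0.0711), Stag1 (0.0744) and Smchd1 (0.0783) also lost theirs. Medians over the alternatives ran from -0.78 to -0.38 for non-clustered and -0.14 to 0.31 for clustered protocadherins, -0.21 to 0.11 for catenins, -0.87 to -0.03 for the wider superfamily, 0.05 to 0.14 for proteases, -0.32 to 0.02 for repressors, -0.56 to -0.27 for cluster regulators and -0.29 to -0.13 for tail-binding partners. Of 194 values of the 13 called genes under all alternatives, 163 kept their call, 31 lost it and 0 changed direction. The causes of these shifts were not tested. The expression filter left untested 18 genes, which had at most 30 counts in a library.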
